A study of Mus musculus with 6 samples.

Results

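Respiratory complex I (NADH:ubiquinone oxidoreductase) is the entry point of electrons from NADH into the mitochondrial respiratory chain. It is an L-shaped assembly of core subunits, which carry the flavin, the iron-sulfur clusters and the proton pumps, and of supernumerary subunits packed around them, and it is put together by assembly factors that do not stay in the finished enzyme. Its nuclear genes carry the symbol stem Nduf and its other core subunits are encoded by mitochondrial DNA. Proximal tubules and thick ascending limbs are among the cells richest in mitochondria in the kidney.

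The members described here are the 45 rows, of 24346 gene symbols in the expression table, whose symbol starts with Nduf. They are 38 subunit rows and 7 assembly factor rows (Ndufaf1 to Ndufaf7). All 45 had a mean of at least 1 FPKM (sequenced fragments per kilobase of transcript, scaled to library size) over the 6 libraries and were tested. Of the 37 subunits placed in a module from textbook knowledge, 36 had a row. Ndufb1 and the mitochondrially encoded subunits are not analysed here.

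RNA from kidneys of C57BL/6 mice was sequenced in 2 groups of 3 libraries, one from mice that had the operation labelled IVCC, which the labels do not spell out, and the other from Sham-operated mice. No drug, allele or reporter is named, and no age, sex or time between surgery and sampling was stated. The labels do not say whether the replicates were separate animals, so a p-value here measures only how these libraries vary, which may be technical. The title of the series places the study in renal congestion and acute kidney injury, and the comparison of IVCC with Sham asks here how complex I transcripts differ after the operation.

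Kidney identity of the libraries was checked on marker lists. The 10 proximal tubule markers summed to 9757 to 12217 FPKM after IVCC and 10115 to 13098 FPKM after Sham surgery. The 6 thick ascending limb markers summed to 1733 to 2003 FPKM after IVCC and 1422 to 2518 FPKM after Sham surgery. Adipose and adrenal markers were near 0: Adipoq, Plin1, Lep, Cfd and Ucp1, and Cyp11b1, Cyp11a1, Th and Dbh, were listed at 0 in all libraries. FPKM hold no read totals. Steps between low values put the library sizes nominally at 8200000 to 9120000 reads for IVCC, against 6120000 to 7160000 reads for Sham, with 60.3% to 64.0% of low values within 0.1 of a whole read, too few for a count test. All IVCC sizes lay above all Sham sizes, and the part of depth in the results was not tested.

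The promoters of 39 members (33 subunits and 6 assembly factors) are listed by RefSeq (GRCm38.p6) as windows from 250 bases before to 50 bases after an annotated start. NRF1, GABPA (an ETS factor) and YY1 are known regulators of nuclear genes for mitochondrial proteins, so their motifs were looked up on both strands. The NRF1 motif (GCGCA, any base, GCGC) was in 22.9% of the 35 subunit windows, against 4.60% of all 32851 windows. The YY1 motif ATGGCGG was in 25.7% of the subunit windows, against 4.05% of all windows. In Ndufb5, Ndufa9, Ndufs7, Ndufs6 and Ndufs4 this match lies after the annotated start. Whether its ATG is the start codon there was not checked. The set of all windows was not matched to the subunits for GC content. The ETS motif CCGGAAG was in 11.4% of subunit windows and 8.86% of all windows. Ndufa5 and Ndufa7 have a pair of overlapping windows each that share sites, and a match is a description of letters only. The 250 bases before the start are printed for 4 members whose transcripts are described below. They are Ndufb4, with the most NRF1 matches among the members, Ndufs6, among the subunits with the lowest fold change, Ndufs3, a core subunit, and Ndufaf4, the assembly factor whose deposited values did not overlap between groups. Each reads 5′ to 3′ on the gene's strand, with motif matches in capitals.
Ndufb4 (GRCm38.p6, chr16:37654369-37654618, minus strand): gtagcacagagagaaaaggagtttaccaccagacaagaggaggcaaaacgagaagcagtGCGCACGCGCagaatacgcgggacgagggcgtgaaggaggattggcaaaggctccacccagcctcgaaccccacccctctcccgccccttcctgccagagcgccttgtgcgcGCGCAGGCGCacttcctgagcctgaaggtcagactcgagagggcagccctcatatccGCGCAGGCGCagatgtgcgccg
Ndufs6 (GRCm38.p6, chr13:73328483-73328732, minus strand): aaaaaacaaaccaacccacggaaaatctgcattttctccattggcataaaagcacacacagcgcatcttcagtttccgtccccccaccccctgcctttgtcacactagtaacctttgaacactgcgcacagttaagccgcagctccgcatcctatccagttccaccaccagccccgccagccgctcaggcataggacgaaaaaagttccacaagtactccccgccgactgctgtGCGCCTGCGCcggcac
Ndufs3 (GRCm38.p6, chr2:90904722-90904971, minus strand): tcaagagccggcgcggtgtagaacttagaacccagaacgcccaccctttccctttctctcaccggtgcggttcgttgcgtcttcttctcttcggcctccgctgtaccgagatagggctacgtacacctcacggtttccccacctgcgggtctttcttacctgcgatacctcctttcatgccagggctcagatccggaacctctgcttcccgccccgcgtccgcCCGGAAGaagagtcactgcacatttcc
Ndufaf4 (GRCm38.p6, chr4:24897833-24898082, plus strand): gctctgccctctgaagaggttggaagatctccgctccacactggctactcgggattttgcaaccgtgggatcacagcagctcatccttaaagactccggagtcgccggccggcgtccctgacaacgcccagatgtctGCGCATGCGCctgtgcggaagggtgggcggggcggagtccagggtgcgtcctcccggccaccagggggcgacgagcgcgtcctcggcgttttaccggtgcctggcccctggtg
The Ndufb4 stretch holds 3 NRF1 matches, those of Ndufs6 and Ndufaf4 hold 1 each, and that of Ndufs3 holds 1 ETS match.

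Complex I subunit transcripts had slightly lower fitted values in IVCC than in Sham, but no member passed the test. The median log2 fold change of the 38 subunits, IVCC over Sham on the log2(FPKM + 1) scale, was -0.26, with 36 below 0. All 7 assembly factors lay below 0 too, with a median of -0.18. Over all 12090 genes tested the median was -0.01 and 51.6% lay below 0. None of the 45 members passed limma's moderated test at a Benjamini-Hochberg adjusted p under 0.05, taken over all genes tested, where 0% of all genes passed (0 of 12090). The adjusted p of the members ran from 0.924 to 0.996. At an unadjusted p under 0.05 there were 0 members in either direction, against 3.56% of all genes (1.87% lower and 1.7% higher after IVCC). In bulk kidney RNA, fewer cells of a type and less RNA per cell cannot be told apart.

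**Figure D1:**
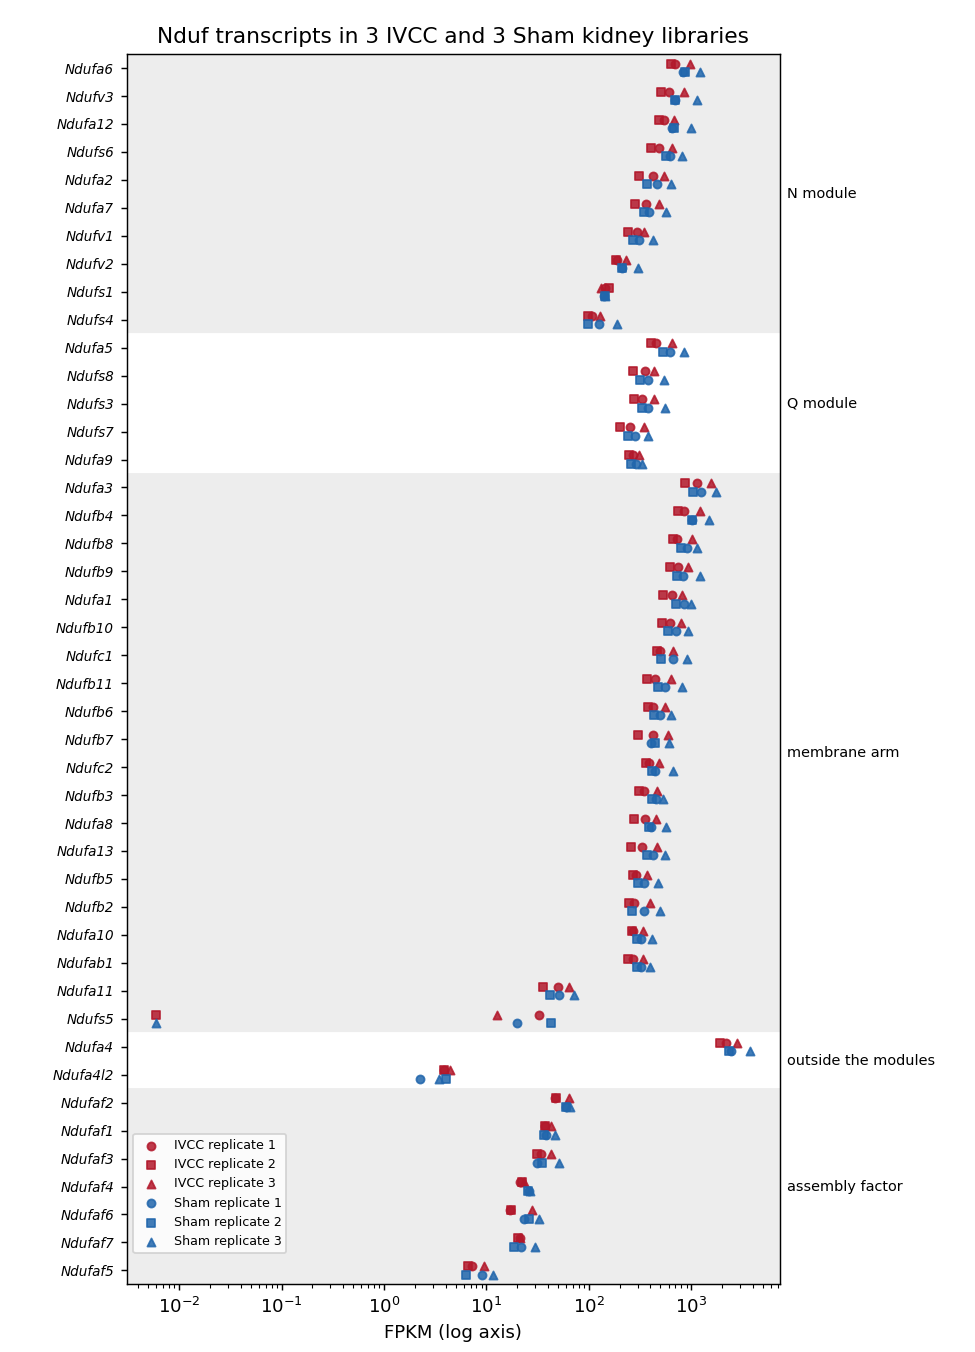
FPKM (log axis) of 44 of the 45 Nduf transcripts in the 3 IVCC (red) and 3 Sham (blue) libraries, grouped by role; the point shape gives the replicate. Values of IVCC and Sham interleave in nearly all rows, Sham replicate 3 is the rightmost point of nearly all subunits, and Ndufs5 is listed at 0.006 FPKM in 2 libraries.

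FPKM is a level per length, so levels can be set beside each other across genes. The median subunit stood at 373.7 FPKM after IVCC and 459.03 FPKM after Sham surgery, and the median assembly factor at 22.2 FPKM after IVCC and 27.3 FPKM after Sham surgery. Ndufa4 was the most abundant member, with a mean of 2569 FPKM over the 6 libraries. Ndufa3, a small membrane-arm subunit, followed it at a mean level of 1273 FPKM over the 6 libraries. Ndufa4l2, the paralogue of Ndufa4, was the least abundant at 3.64 FPKM. Together the subunits took 2.24%, 2.04% and 2.42% of the summed FPKM in IVCC replicates 1 to 3, and 2.34%, 2.34% and 2.50% in Sham replicates 1 to 3. The assembly factors took 0.0237% to 0.0267% of the sum in all 6 libraries. Short transcripts have an FPKM that leans on the length assumed for them, and the median annotated length was 810 bp for subunits and 1451 bp for assembly factors.

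The matrix arm oxidises NADH in its N module and passes electrons to ubiquinone in its Q module. Most of its 7 nuclear core subunits carry cofactors of that path. The median log2 fold change of all 7 was -0.18, with 6 of 7 below 0. Ndufv1, which binds NADH and the flavin, had 295.8, 242.3 and 348.5 FPKM after IVCC, against 306.3, 271.4 and 423 FPKM after Sham surgery. Ndufv2, an iron-sulfur subunit beside it, had 190.2, 183.5 and 230.4 FPKM after IVCC, against 209.1, 212.1 and 304.6 FPKM after Sham surgery. For both genes IVCC replicate 3 lay above the 2 lower Sham libraries, so the groups overlapped. Ndufs1, the largest nuclear core subunit, had 144, 157.8 and 131.3 FPKM after IVCC, against 142, 145 and 143.8 FPKM after Sham surgery. It was the one core subunit whose fold change was not below 0 (log2 value 0.00 with a standard error of 0.12), and the 3 Sham values lay within the IVCC range.

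In the Q module, Ndufs7 carries the iron-sulfur cluster that hands electrons to ubiquinone, and Ndufs3 and Ndufs8 are its neighbours in the core. Ndufs7 had 254.4, 200.8 and 349.5 FPKM after IVCC, against 284.6, 243.9 and 377.6 FPKM after Sham surgery. The groups overlapped, and the log2 fold change was -0.18 (standard error 0.24). Ndufs3 (GRCm38, chromosome 2, 90894634 to 90904827, minus strand), whose promoter is shown above, had 328.6, 278.1 and 428.6 FPKM after IVCC, against 379.2, 329.4 and 548.4 FPKM after Sham surgery. Ndufs8, an iron-sulfur subunit, had 355.6, 270.7 and 433 FPKM after IVCC, against 374.1, 316.3 and 546.7 FPKM after Sham surgery. In both, IVCC replicate 3 exceeded the 2 lower Sham libraries. Ndufs3 shares 98.6% identity over most of its transcript with the processed pseudogene Gm12251, so its value is uncertain by what reads moved between them. Ndufa9, a supernumerary subunit of this side of the arm that binds NADPH, was at the upper end of the fold changes: it had 267.4, 249.5 and 306.2 FPKM after IVCC, against 286.6, 257.2 and 328.2 FPKM after Sham surgery.

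The lowest fold changes among the other subunits were those of Ndufa12, Ndufa5 and Ndufs6, and all of them sit in the matrix arm. Ndufa12, which takes the place of the assembly factor Ndufaf2 in the finished enzyme, had 544.5, 485.5 and 686.1 FPKM after IVCC, against 653.1, 673.5 and 1003 FPKM after Sham surgery. Its log2 fold change was -0.43 with a standard error of 0.22 (limma adjusted p = 0.924), and IVCC replicate 3 overlapped the Sham range. Ndufa5, a Q-module subunit, had 455.7, 408.8 and 653.7 FPKM after IVCC, against 616.3, 528 and 855.3 FPKM after Sham surgery. Ndufs6, a zinc-binding subunit of the N module, had 483.6, 401.1 and 644.4 FPKM after IVCC, against 621.8, 565.7 and 808.8 FPKM after Sham surgery. For both, the same library, IVCC replicate 3, reached above the 2 lower Sham values. Their log2 fold changes were -0.40 with a standard error of 0.25 for Ndufa5 and -0.39 with a standard error of 0.22 for Ndufs6 (limma adjusted p = 0.924 each). In all, 8 members have a near-identical copy at another place in the annotation, and 2 more, Ndufa13 and Ndufb6, share sequence with a neighbour that overlaps them on the other strand (Tssk6 and Smim27). Ndufa12 and Ndufs6 each have 1 near-identical processed pseudogene (at least 95% identity over at least 200 bp).

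All 20 membrane-arm rows had a log2 fold change below 0, with a median of -0.27 and a range from -0.38 (Ndufa13) to -0.15 (Ndufa11). Ndufab1, the mitochondrial acyl carrier protein that sits in complex I and also serves fatty acid and lipoate synthesis, had 270.6, 240.8 and 337.5 FPKM after IVCC, against 321.1, 296.1 and 395.4 FPKM after Sham surgery. Ndufb4, with its 3 NRF1 matches, had 854, 747.6 and 1212 FPKM after IVCC, against 1019, 1007 and 1505 FPKM after Sham surgery. In each of the 2 genes IVCC replicate 3 lay above the lower Sham libraries. Ndufab1 has 2 near-identical genes, the best a processed pseudogene (Gm4459, 99.8% identity over 468 bp). Ndufb4 has 1, the processed pseudogene Ndufb4c (100% identity over 390 bp). The values of both members are therefore uncertain in the way of Ndufs3. Ndufa11 was the lowest of the membrane-arm rows in level apart from Ndufs5. It had 50, 35.4 and 63.4 FPKM after IVCC, against 51.3, 42.2 and 72 FPKM after Sham surgery, and the groups interleaved. Its fold change and that of Ndufs7 rested on IVCC replicate 2 and Sham replicate 3: without that library the log2 fold changes were 0.07 for Ndufa11 and 0.01 for Ndufs7. Without Sham replicate 3 they were 0.05 and -0.01.

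Ndufs5, a membrane-arm subunit of the intermembrane space side, had 32.4, 0.006 and 12.6 FPKM after IVCC, against 19.7, 42.5 and 0.006 FPKM after Sham surgery. The near-zero values fell in 1 library of each group. A processed pseudogene in the annotation, BC002163 (GRCm38, chromosome 16, 42955631 to 42955949, plus strand), aligns to the Ndufs5 transcript over 319 bp at 99.4% identity. The table lists BC002163 at 180.2, 183.6 and 248.4 FPKM after IVCC, against 273.4, 205.2 and 301.8 FPKM after Sham surgery. The sum of both rows was 212.6, 183.6 and 261 FPKM after IVCC, against 293.1, 247.7 and 301.8 FPKM after Sham surgery. The 2 rows differ in transcript length, so their sum is approximate. The sum averaged 219.1 ± 39.1 FPKM after IVCC and 280.9 ± 29.1 FPKM after Sham surgery (SD, n = 3 each), and the groups overlapped. Reads from the aligned part can match both rows, and how many do was not worked out, so the value of Ndufs5 alone is uncertain.

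**Figure D2:**
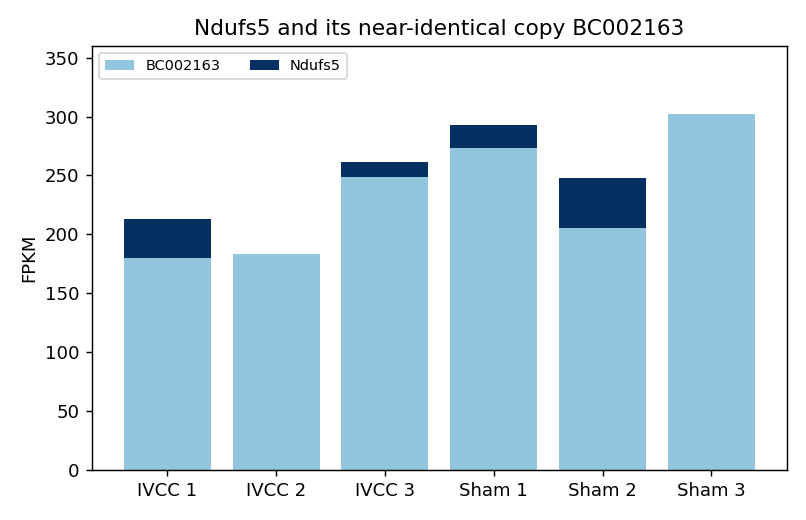
Stacked FPKM of Ndufs5 (dark) on its near-identical pseudogene BC002163 (light) in the 3 IVCC and 3 Sham libraries. Ndufs5 is absent from the bars of IVCC replicate 2 and Sham replicate 3, where it is listed at 0.006 FPKM, and the stacked height runs from 183.6 to 301.8 FPKM.

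Ndufa4 and Ndufa4l2 carry the Nduf name but stand outside the modules. Ndufa4 is now assigned to cytochrome c oxidase, and Ndufa4l2 is a hypoxia-inducible paralogue. Ndufa4 had 2196, 1890 and 2793 FPKM after IVCC, against 2447, 2317 and 3774 FPKM after Sham surgery, in the library order of the complex I subunits. Ndufa4l2 had 3.83, 3.86 and 4.44 FPKM after IVCC, against 2.25, 4.01 and 3.43 FPKM after Sham surgery. It had the highest log2 fold change of the members, 0.28 with a standard error of 0.18 (limma adjusted p = 0.924), and Sham replicate 2 lay within the IVCC range.

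All 7 assembly factors had a log2 fold change below 0, from -0.41 to -0.05, at levels well under those of the subunits, and none passed the test. Ndufaf1, which acts with Acad9, Ecsit and Tmem126b in building the membrane arm, had 37.3, 37.4 and 42.7 FPKM after IVCC, against 38.4, 36.8 and 47 FPKM after Sham surgery. Ndufaf3, which works with Ndufaf4 on the Q module, had 33.8, 31 and 42.6 FPKM after IVCC, against 31.2, 34.8 and 51.5 FPKM after Sham surgery. The groups overlapped for both. Ndufaf4 (GRCm38, chromosome 4, 24898083 to 24905001, plus strand) had 21.2, 22.3 and 23.1 FPKM after IVCC, against 25.8, 25.2 and 26.9 FPKM after Sham surgery. On the deposited values it was the only member whose groups did not overlap, 1 of 45, while 4.22% of all genes tested had all IVCC values below all Sham values, 4.09% had all above, and 8.31% either. Its log2 fold change was -0.22 with a standard error of 0.10 (limma adjusted p = 0.924). After correction for transcript length and GC content its groups overlapped, with a log2 fold change of -0.26 and an adjusted limma p of 0.908.

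Ndufaf2, a chaperone of the late assembly steps, had 47, 48.2 and 63.8 FPKM after IVCC, against 59.8, 59.2 and 65.9 FPKM after Sham surgery. Ndufaf6, which acts on the membrane arm next to the Q module, had 17, 17.2 and 27.9 FPKM after IVCC, against 23.4, 26.2 and 32.4 FPKM after Sham surgery. For both, IVCC replicate 3 reached into the Sham range. The log2 fold change of Ndufaf6, -0.41 with a standard error of 0.21, was the lowest of the assembly factors. Ndufaf5, which hydroxylates a residue of Ndufs7, had 7.17, 6.57 and 9.44 FPKM after IVCC, against 9.10, 6.38 and 11.6 FPKM after Sham surgery. Ndufaf7, a mitochondrial methyltransferase needed for assembly, had 21.1, 20.3 and 21.4 FPKM after IVCC, against 21.6, 18.7 and 29.8 FPKM after Sham surgery. Both overlapped. The median fold change of the assembly factors rested on Sham replicate 3, without which it was 0.00.

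Subunits and assembly factors were set side by side on medians, since members are not replicates. The subunit median lay 0.08 below the assembly factor median on the log2 scale (-0.26 against -0.18). Per library, the subunit minus assembly factor difference in median deviation was -0.01, -0.18 and 0.04 in IVCC replicates 1 to 3, and 0.03, -0.03 and 0.07 in Sham replicates 1 to 3. The spread of this difference between libraries of a group was 0.09 (pooled SD), as large as the difference itself. After quantile normalization its sign turned (0.05), with medians of -0.08 for subunits and -0.14 for assembly factors.

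Across the 6 libraries the subunits varied together. Relative to gene means over all libraries, the median subunit lay at -0.18, -0.42 and 0.20 in IVCC replicates 1 to 3, and at 0.03, -0.11 and 0.50 in Sham replicates 1 to 3, in log2 units. Sham replicate 3 was the highest library for 35 of 38 subunits, and IVCC replicate 2 the lowest for 36 of 38. Among all genes tested, Sham replicate 3 was highest for 36.2% and IVCC replicate 2 lowest for 26.0%. The deviations of 35 of 38 subunits had a Pearson correlation of at least 0.9 with the median of the other subunits over the 6 libraries, against 2 of 7 assembly factors. These correlations share libraries and depth and are a description. The share of all genes that reach 0.9 with this median was not worked out, so the count does not set the subunits apart. The exceptions were Ndufs1 (-0.62), Ndufs5 (-0.19) and Ndufa4l2 (-0.13). These genes had been left out of the reference median for all members, so that median was not taken over every other subunit. Sham replicate 3 was also the highest library for all 7 assembly factors. Without it, the subunit median log2 fold change was -0.07, and without IVCC replicate 2 it was -0.14. Without IVCC replicate 3 it was -0.41, and without Sham replicate 2 it was -0.40. Without IVCC replicate 1 it was -0.23 and without Sham replicate 1 it was -0.30, so it stayed below 0 whichever library was left out.

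**Figure D3:**
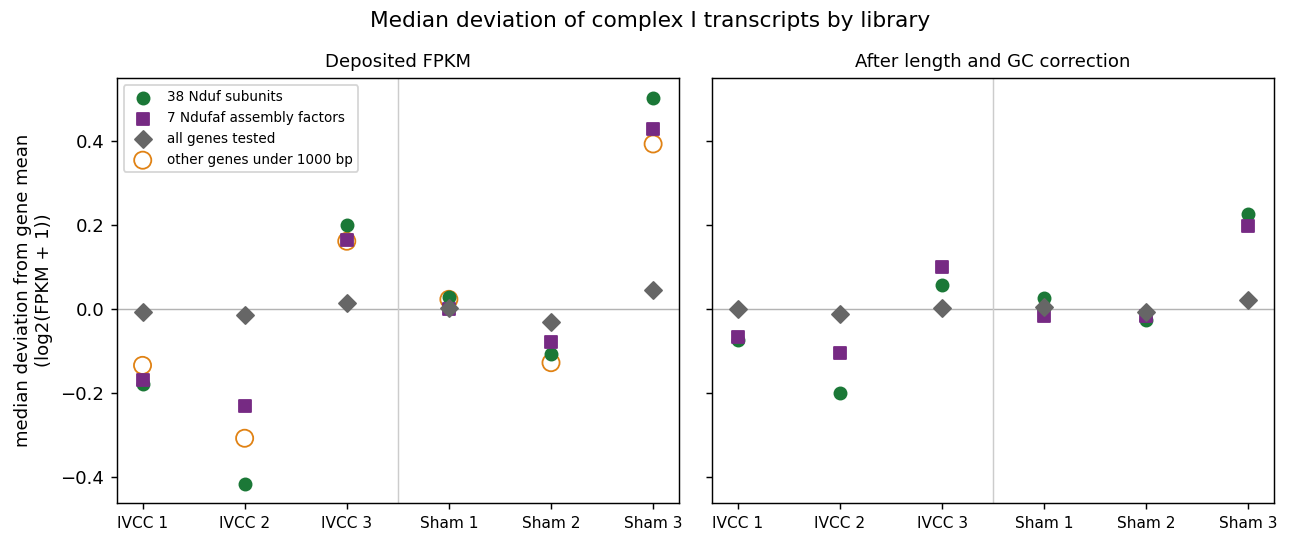
Median deviation from the gene mean (log2(FPKM + 1)) in each library for 38 subunits, 7 assembly factors and all genes tested, from deposited FPKM (left, with other genes under 1000 bp as open circles) and after the length and GC correction (right). The subunits run from -0.42 in IVCC replicate 2 to 0.50 in Sham replicate 3 on the left, and from -0.20 to 0.23 on the right.

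Short transcripts as a class showed the same library order. Of the 38 subunits, 26 have a median annotated transcript under 1000 bp. The 1245 other genes tested in that length range had a median log2 fold change of -0.19, with 79.4% below 0, against -0.29 and 25 of 26 for the short subunits. Their median deviation was -0.13, -0.31 and 0.16 in IVCC replicates 1 to 3, and 0.02, -0.13 and 0.39 in Sham replicates 1 to 3. Other short genes whose mean level reached 100 FPKM, the level of most subunits, had a median of -0.23 (380 genes, 91.6% below 0). The median deviation of these abundant short genes was -0.16, -0.39 and 0.20 in IVCC replicates 1 to 3. In Sham replicates 1 to 3 it was 0.03, -0.17 and 0.49, close to the subunit values. The 12 subunits of at least 1000 bp had a median of -0.25, while other genes that long had a median of 0.01 (10724 genes, 48.1% below 0), and those among them with at least 100 FPKM had a median of -0.12 (755 genes). Over all genes tested with a known length, the Spearman correlation of fold change with length was 0.50 and with mean FPKM -0.37 (across 12014 genes, which are not independent). Among the subunits it was 0.28 with length and -0.49 with mean FPKM (38 genes). The annotated length is itself uncertain for some members: the coding transcripts of Ndufb2 run from 455 to 4371 bp and those of Ndufab1 from 1416 to 3479 bp.

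**Figure D4:**
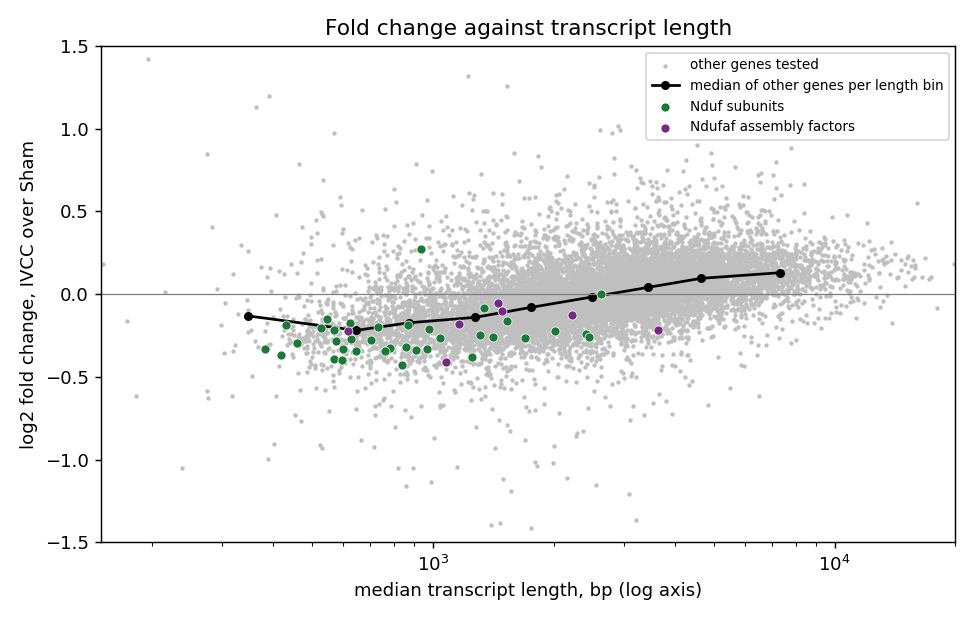
Log2 fold change, IVCC over Sham, against median transcript length (log axis) for all genes tested, with the median of the other genes per length bin (black), the Nduf subunits (green) and the Ndufaf assembly factors (purple); 59 other genes lie beyond the vertical axis. The black line runs from -0.22 among short transcripts to 0.13 in the longest bin, and most subunits lie at its short end and below it.

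After subtracting from each library the trend of its deviations on transcript length and GC content, the subunit median was -0.16 and that of the assembly factors -0.10. Of the subunits 35 of 38 lay below 0, and of the assembly factors 5 of 7, where 52.3% of all genes did. Other abundant genes stayed lower too: those under 1000 bp with at least 100 FPKM had a corrected median of -0.10, with 78.9% below 0. Those of at least 1000 bp at that level had -0.04 and 64.6%. The subunits under 1000 bp had -0.17 and 96.2%, and the longer subunits -0.11 and 83.3%. No member passed at an adjusted p under 0.05 (0% of all genes passed, and the smallest adjusted p of a member was 0.677). At an unadjusted p under 0.05, 6 members were lower after IVCC and 0 higher, while 3.09% of all genes were lower and 2.55% higher. They were Ndufa6, Ndufs6, Ndufa1, Ndufa5, Ndufa12 and Ndufa13. For these 6 and for Ndufa4 and Ndufc2, all corrected IVCC values lay below all corrected Sham values, which is 8 of 45 members where 5.88% of all genes did so. For 0 members did all corrected IVCC values lie above Sham, where 4.99% of all genes did so. Ndufa6, an N-module subunit, had the smallest p of them, with a corrected log2 fold change of -0.36 (standard error 0.09, limma adjusted p = 0.677). Ndufa1, a small membrane-arm subunit encoded on the X chromosome, had a corrected log2 fold change of -0.38 (standard error 0.11, limma adjusted p = 0.736). Before correction these were -0.33 for Ndufa6 and -0.37 for Ndufa1, so the correction moved neither toward 0. Both have short transcripts (382 and 419 bp). Other genes in the shortest length bin had a deposited median of -0.13, with 59.8% below 0. In the next bin it was -0.22, with 84.9% below 0. How well the correction fits the shortest transcripts was not tested.

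After the correction the core subunits lay nearer to 0 than the supernumerary ones. The 7 core subunits had a corrected median of -0.03, and the lowest was Ndufs3 at -0.09. The 29 supernumerary module subunits had a corrected median of -0.18, with 28 of 29 below 0. Before correction the medians were -0.18 for the core and -0.28 for the supernumerary subunits, whose median transcript lengths were 1312 and 704 bp. The classes also differ in level, which the correction does not take into account. The median core subunit stood at 295.6 FPKM after IVCC and 333.6 FPKM after Sham surgery. The median supernumerary subunit stood at 439.2 FPKM after IVCC and 505.9 FPKM after Sham surgery. By module, the corrected medians were -0.14 in the N module (10 genes), -0.03 in the Q module (6 genes) and -0.17 in the membrane arm (20 genes). The difference between these classes was not tested. After the correction the subunit deviations still ran from -0.20 in IVCC replicate 2 to 0.23 in Sham replicate 3.

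**Figure D5:**
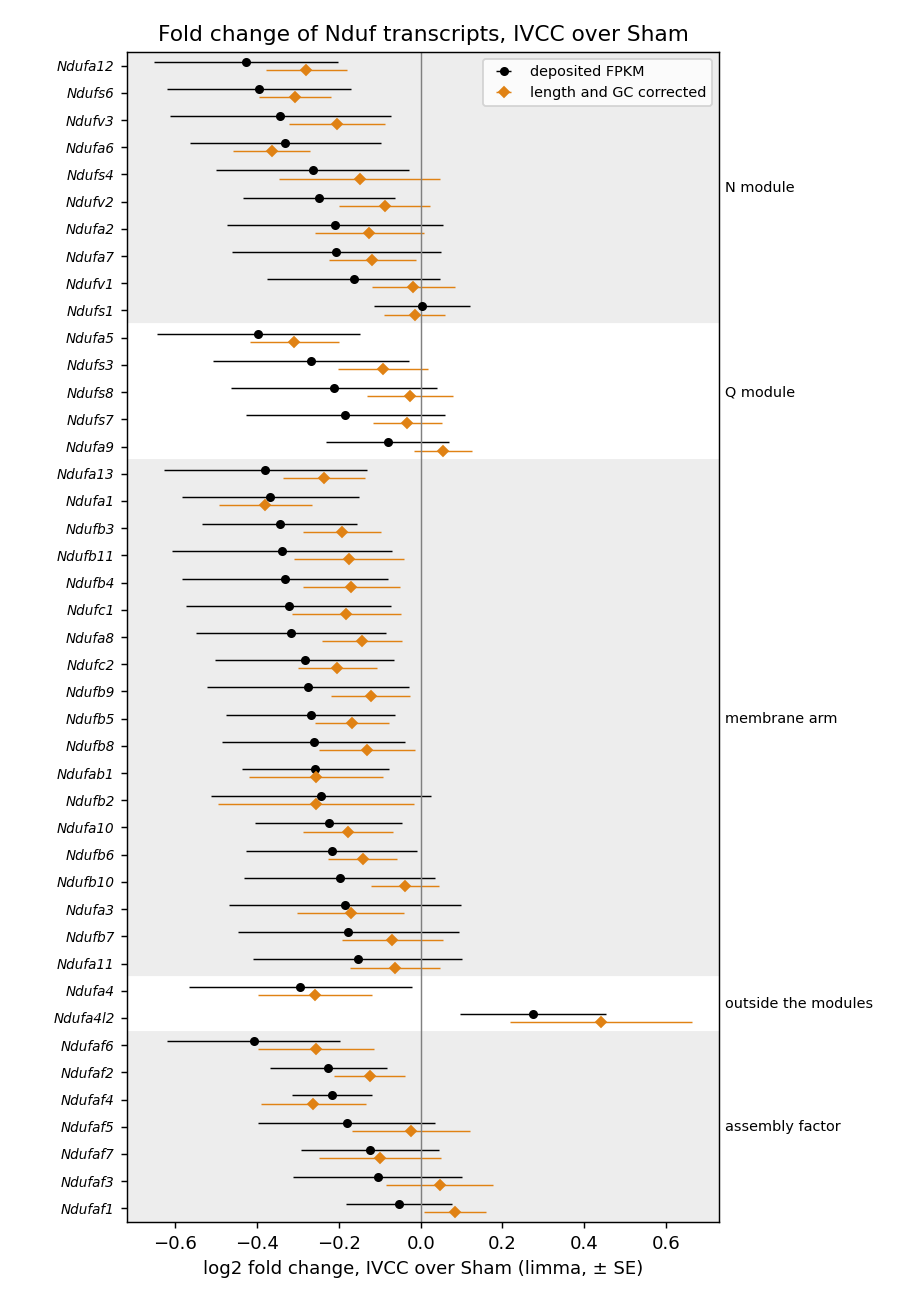
Log2 fold change, IVCC over Sham, with its limma standard error (n = 3 libraries a group) for Nduf transcripts by role, from deposited FPKM (black) and after the length and GC correction (orange); Ndufs5, with a standard error of 1.64, is left out. The black points lie below 0 except for Ndufs1 and Ndufa4l2, and the orange points of Ndufa9, Ndufaf1, Ndufaf3 and Ndufa4l2 lie above 0.

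Scaling mattered for the count of members below 0. FPKM rescaled to a common sum per library (TPM) moved the median of all genes by 0.16 in log2, and then 35 members lay below 0 and 10 above it, while 21% of all genes lay below 0. With that shift of the median of all genes taken off, the subunits had a median of -0.24. Quantile normalization left 40 members below 0 and 5 above, where 50.4% of all genes lay below 0, with a subunit median of -0.08. On the deposited scale the split was 43 below and 2 above.

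Complex I also depends on assembly factors with other names. Of 15 symbols listed, 10 had a row, and all 10 had a log2 fold change below 0 (median -0.16), none with an unadjusted limma p under 0.05. Acad9, which acts with Ndufaf1, averaged 31.6 ± 1.89 FPKM after IVCC and 36.7 ± 4.05 FPKM after Sham surgery (SD, n = 3 each). Its partner Ecsit averaged 74.8 ± 15.7 FPKM after IVCC and 85.1 ± 15.3 FPKM after Sham surgery. Sham replicate 3 was the highest library for 9 of these 10 genes. Lyrm2, a small matrix protein of complex I biogenesis, had the lowest log2 fold change of the 10 (-0.27 with a standard error of 0.13), at 46.1, 46.5 and 52 FPKM after IVCC, against 51.7, 56.7 and 66.8 FPKM after Sham surgery. The gene listed as 1810043H04Rik, which RefSeq calls Ndufaf8, had 75.1, 56.3 and 93.9 FPKM after IVCC, against 70.4, 63.6 and 90.1 FPKM after Sham surgery, with a log2 fold change of -0.01.

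Regulators of mitochondrial biogenesis had no shared direction. Of 10 such genes, 5 had a log2 fold change below 0 and 5 above it, with a median of 0.01, and none had an unadjusted limma p under 0.05. Ppargc1a, the coactivator PGC-1alpha, had 11.5, 14.4 and 11.2 FPKM after IVCC, against 11.4, 10.5 and 10.5 FPKM after Sham surgery. Tfam, which packages and transcribes mitochondrial DNA, had 17.8, 19.6 and 18.3 FPKM after IVCC, against 18.1, 18.3 and 22.9 FPKM after Sham surgery. The groups overlapped for both genes. Ppargc1b was the only listed regulator whose groups did not overlap, while 4.22% of all genes tested had all IVCC values below all Sham values. It had 1.68, 1.79 and 1.57 FPKM after IVCC, against 1.85, 1.84 and 2.02 FPKM after Sham surgery, near the 1 FPKM filter. Its log2 fold change was -0.11 with a standard error of 0.13. Nrf1, whose motif was searched above, averaged 4.95 ± 0.324 FPKM after IVCC and 4.77 ± 0.814 FPKM after Sham surgery (SD, n = 3 each).

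Markers of other cells were read beside these values. The proximal tubule list had 4 markers below 0 and 6 above, with a median log2 fold change of 0.10, and the thick ascending limb list 3 below and 3 above. Podocyte markers (4 of 4) and endothelial markers (6 of 6) lay above 0, with medians of 0.61 and 0.29. Of the fibroblast and macrophage lists 5 of 6 and 6 of 7 lay above 0, with medians of 0.52 and 0.33. Summed fibroblast markers ran from 42.5 to 48.5 FPKM after IVCC and from 33.8 to 39.6 FPKM after Sham surgery, and summed endothelial markers from 149.5 to 159.1 FPKM after IVCC and from 130.7 to 145.2 FPKM after Sham surgery. Distal convoluted tubule markers (3 of 4) and intercalated cell markers (4 of 5) mostly lay above 0 too, with medians of 0.05 and 0.07. Principal cell markers had 2 below 0 and 2 above. All these fold changes are without the length and GC correction. Long transcripts leaned higher in general: other genes in the longest length bin had a median of 0.13, with 12.5% below 0. The part of transcript length in the marker values was not tested, nor that of these cells in the complex I values.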

How the data were processed

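The values used are FPKM, as deposited by the authors in 1 table with a column per library. Per the labels' protocols, libraries were stranded mRNA preparations sequenced as single 75 bp reads. The submitters' processing notes name Cufflinks 2.2.1, SAMtools 0.1.19, Bowtie2 2.2.3, TopHat2 2.0.13 and the build mm10, without roles; annotation and filters were not stated. Genes averaging 1 FPKM or more were tested on log2(FPKM + 1), which understates the change of low genes, with limma 3.58.1 (mean-variance trend, two-sided) in R 4.3.3, adjusted over all genes. An exact permutation test of 3 against 3 cannot go below p = 0.1. Transcript length and GC content were medians over GENCODE M21 basic transcripts (GRCm38, which mm10 names), removed per library by natural splines with 4 degrees of freedom. Near-identical copies came from BLAST 2.17.0. The fit was tested on simulated data. Members, lists and alternatives were chosen with earlier results of these data known. Named members are the core subunits, all Ndufaf rows, the 3 lowest and 3 highest other subunits, Ndufa4, Ndufa4l2, Ndufab1 and any member with groups apart or an unadjusted p under 0.05. Ndufb4, Ndufs5 and the members of the corrected comparison were named after their values were seen. The short and long gene classes and the level of 100 FPKM were also chosen after seeing the data. Of the members, 1 is counted in the medians and counts but its own values are not reported here.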

Additional observations from a re-analysis of the deposited data

How the results depend on the processing

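No Nduf member was called under any alternative run, and the subunit median stayed below 0 in each. Genes called over the whole table numbered 0 (431 at an unadjusted p under 0.05) but 23 with no filter, 4 without the libraries numbered 3 of both groups, 1 with the length and GC correction plus the replicate block, and 0 to 4 when 1 library was left out. Leaving out 1 library gave subunit medians from -0.41 to -0.07, assembly factor medians from -0.25 to 0.00, differences between them from -0.17 to -0.04 and corrected subunit medians from -0.23 to -0.08. After quantile normalization the difference was 0.052 and the corrected subunit median -0.04. With the shortest coding transcript as length, added after seeing the data, the corrected median was -0.18.

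Same-numbered libraries were checked for pairing: their deviations from group means correlated at -0.11, 0.34 and 0.32 for numbers 1 to 3. Libraries numbered 2 and 3 correlated best with their own number, and those numbered 1 did not. Whether the numbers mark a pairing is therefore not settled, and the main fit does not use them. With the replicate number as a block, 33 members had an unadjusted p under 0.05 but 0 were called (smallest adjusted p 0.0775), where 19.8% of all genes did so. With the block and the correction it was 22 members (smallest adjusted p 0.106, 13.8% of all genes).

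Of the values of named members under the alternatives, 24 changed sign and the other 374 kept direction and side of the threshold. With the length and GC correction, alone or with the replicate block, Ndufs1 was at -0.015, Ndufaf1 at 0.084, Ndufaf3 at 0.046 and Ndufa9 at 0.055. After quantile normalization Ndufaf1 was at 0.016 and Ndufa9 at 0.067. Median-ratio scaling gave Ndufs1 -0.00020, and Ndufaf7 was at 0.044 without the libraries numbered 3. Leaving out 1 library gave -0.062 to 0.069 for Ndufs1, -0.39 to 0.0056 for Ndufs7, -0.38 to 0.011 for Ndufs8, -0.30 to 0.020 for Ndufv1, -0.12 to 0.053 for Ndufaf1, -0.25 to 0.10 for Ndufaf3, -0.39 to 0.0011 for Ndufaf5, -0.26 to 0.060 for Ndufaf7, -0.17 to 0.0098 for Ndufa9 and -0.35 to 0.065 for Ndufa11. The cause was not tested. The smallest difference that 3 libraries a group can detect was not worked out.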
